A study of Mus musculus with 5 samples.

Results

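The receptors for haematopoietic growth factors were followed in 3′ RNA-seq counts of sorted bone marrow progenitors with and without a truncating deletion in Bcor. The set holds 9 genes of the 52550 counted, namely Kit, Flt3, Csf1r, Csf2ra, Csf2rb, Csf2rb2, Csf3r, Il3ra and Epor. They were chosen by symbol for what they encode, through the gene identifiers of the count table. Libraries came from Lin-cKit+Sca1- (KL) cells, the sorted fraction of mouse bone marrow that holds committed myeloid progenitors, taken 20 weeks after tamoxifen. The 3 BcorΔE9-10 libraries carried the genotype scl-Cre-ERT +; Bcorfl/y and the 2 BcorWT libraries scl-Cre-ERT +; Bcorwt/y, so both groups carried the Cre transgene. All mice were male, were 3 to 6 months old at treatment and received intraperitoneal tamoxifen at 1 mg on each of 5 days, after which the floxed exons of Bcor are removed and a shortened BCOR protein, a subunit of a variant Polycomb complex, is left. The Cre is driven by a stem cell enhancer of Scl, so recombination starts in haematopoietic stem cells and reaches the sorted progenitors by descent. Expression was measured by QuantSeq, which reads the polyadenylated 3′ end of each transcript. The labels do not state that each library was a separate animal, and the p-values measure the spread between these libraries.

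Growth factor receptors tell a blood progenitor whether to survive, divide or mature. KIT, FLT3 and CSF1R are receptor tyrosine kinases, which pair up when they bind stem cell factor, FLT3 ligand or macrophage colony-stimulating factor and phosphorylate each other. The receptors for GM-CSF, IL-3, IL-5, G-CSF and erythropoietin have no kinase of their own and work through the JAK kinases bound to them, which activate STAT5 and STAT3. GM-CSF, IL-3 and IL-5 each have a specific α chain that binds the factor and share the β chain encoded by Csf2rb, which carries the signal. Mice have a further β chain, Csf2rb2, a duplicate that serves IL-3 alone. KIT marks immature progenitors and is lost as most myeloid cells mature, with mast cells as the main exception. In this experiment KIT protein on the cell surface was also part of the sorting gate.

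Total counts per library ran from 5998924 to 8303999. CPM values below are counts per 1e+06 counts and are scaled by library totals adjusted with TMM factors, and 11766 genes passed the expression filter. Called genes are those with an adjusted p under 0.05 in limma-voom after Benjamini-Hochberg adjustment over all of them. Of the genes tested, 10.1% were called, 6.02% as higher and 4.09% as lower in BcorΔE9-10 cells, which is 708 and 481 genes. The total of 1189 was 774 without BcorΔE9-10 replicate 2, 723 without BcorΔE9-10 replicate 3 and 558 without BcorWT replicate 1. Scaling by total counts alone turned the split into 1210 higher and 197 lower. All genes together had a median log2 fold change (log2FC, BcorΔE9-10 over BcorWT) of 0.0043, and total counts alone moved it by 0.14. Bcor itself was counted at 196, 168 and 185 in BcorΔE9-10 and at 83 and 109 in BcorWT libraries, higher by a log2FC of 0.78 (SE 0.22, limma adjusted p = 0.0313). Its counts come from the transcript end, outside the deleted exons, and do not check the deletion. The Bcor call was lost with correction for GC content (0.39, limma adjusted p = 0.287) and without BcorΔE9-10 replicate 1, 2 or 3 or BcorWT replicate 1 (0.54 to 0.84, limma adjusted p = 0.0521 to 0.272).

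The libraries held the defining RNAs of granulocyte-monocyte progenitors, with Mpo at 4292 to 5534 CPM and Elane at 364 to 449 CPM. Ly6a, which encodes the Sca1 antigen that the gate excludes, had 3 to 8 counts per library. RNAs of maturing neutrophils were abundant in every library, and the 10 such markers summed to 149640 to 173550 CPM in BcorΔE9-10 and to 216250 to 228655 CPM in BcorWT libraries. In bulk samples such as these, fewer cells of a type and less RNA per cell cannot be told apart.

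Of the 9 receptor genes, 8 passed the expression filter, and 2 of these were called. Kit was higher and Csf2rb was lower in BcorΔE9-10 cells. For 4 of the 8 the groups did not overlap, Kit and Flt3 with all 3 BcorΔE9-10 libraries above both BcorWT libraries and Csf2rb and Il3ra with all 3 below. Over all genes tested, 22.6% lay above and 20.3% below in this way, so that 2 of 8 in each direction is near the share of genes in general. The log2FC values of the 8 had a median of -0.27, with 3 above and 5 below 0, beside 0.0043 over all genes. The 2 calls had opposite directions.

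**Figure D1:**
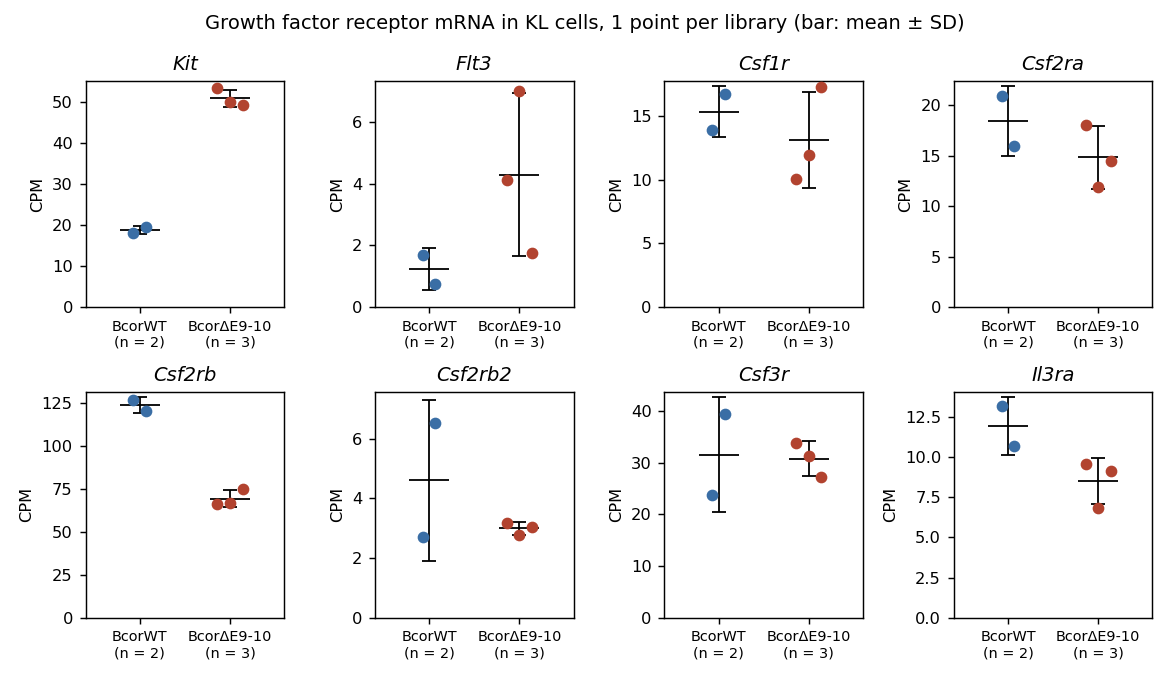
CPM of the 8 tested receptor genes in each library, with BcorWT in blue (n = 2) and BcorΔE9-10 in red (n = 3), and bars for mean ± SD. Kit sits between 49.4 and 53.4 CPM in BcorΔE9-10 against 18.2 and 19.6 in BcorWT, and Csf2rb between 65.8 and 74.7 against 120 and 127, while Csf1r, Csf2ra, Csf2rb2 and Csf3r overlap between groups.

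Among the receptor tyrosine kinases, Kit rose. Kit, the receptor for stem cell factor, lies on chromosome 5 (mm10, 75574916 to 75656722, plus strand). It was counted at 452, 307 and 423 in the BcorΔE9-10 libraries and at 128 and 132 in the BcorWT libraries. On the CPM scale these are 53.4, 50.1 and 49.4 against 18.2 and 19.6, so the lowest BcorΔE9-10 library was well above the highest BcorWT library and each group was tight. Means were 51.0 ± 2.14 CPM (SD, n = 3) and 18.9 ± 0.977 CPM (SD, n = 2). Kit was 2.70-fold higher, a log2FC of 1.43 (SE 0.17, 95% interval 1.07 to 1.80, limma adjusted p = 9.82e-05), and ranked 34 by p among all genes. It stayed called when any library was left out, between 1.37 and 1.49.

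The end of the Kit transcript is poor in G and C, at 27.0% over its last 300 bases, and correcting log fold changes for GC content lowered the Kit value to 1.06, still called (limma adjusted p = 0.00112). This was the lowest of its values over 11 other settings with all libraries, which reached up to 1.58.

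Since cells were sorted on KIT protein, Kit mRNA was set beside genes of other surface antigens, of the gate or of myeloid progenitors. Cd34 encodes an antigen of stem and progenitor cells that was not used to set the KL gate, and was named after its values were seen. It had 33.6, 30.7 and 25.0 CPM in BcorΔE9-10 and 31.4 and 28.4 CPM in BcorWT libraries. Its groups overlapped, and its log2FC was -0.02 (SE 0.18, 95% interval -0.40 to 0.35, limma adjusted p = 0.956), with a positive sign with total counts alone (0.12) and without BcorΔE9-10 replicate 3 (0.096) or BcorWT replicate 1 (0.043). The log2 ratio of Kit to Cd34 counts, also chosen after the values were seen, was 0.67, 0.71 and 0.98 in BcorΔE9-10 libraries and -0.79 and -0.54 in BcorWT libraries. Ly6g, an antigen of granulocytes that lineage depletion is meant to remove, was lower in BcorΔE9-10 cells, with 228, 208 and 222 CPM against 570 and 321 CPM and a log2FC of -0.97 (limma adjusted p = 0.00204), which was -0.55 without BcorWT replicate 1 and -1.37 without BcorWT replicate 2. Ly6c2, a surface antigen of monocytes and immature granulocytes, was lower by a log2FC of -0.36 (limma adjusted p = 0.0148), a call that was lost without BcorΔE9-10 replicate 1 or 3 or either BcorWT library (-0.38 to -0.34), with total counts alone (-0.22) and with GC correction (-0.25, limma adjusted p = 0.0902). Itgam, the CD11b antigen of granulocytes and monocytes that lineage depletion also targets, was named after its values were seen. It had 120, 122 and 132 CPM against 96.4 and 96.5 CPM, so that the groups did not overlap, with a log2FC of 0.37 (limma adjusted p = 0.0618) that was 0.018 after correction for GC content. Of the 9 surface antigen genes, Kit included, 7 were tested, and Kit was the 1 called higher beside 2 lower. The part of the gate and of cell makeup in the Kit difference was not tested.

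Flt3, the receptor of early lymphoid and myeloid progenitors, lies on the minus strand of chromosome 5 (147330741 to 147400489). It had low counts of 35, 43 and 15 in BcorΔE9-10 and of 12 and 5 in BcorWT libraries. In CPM these were 4.14, 7.02 and 1.75 against 1.70 and 0.741. All 3 BcorΔE9-10 libraries were above both BcorWT libraries, but the third exceeded the higher BcorWT library by only a small margin. The log2FC was 1.55 with a wide interval (SE 0.76, 95% interval -0.07 to 3.16), and the difference did not pass the threshold (limma adjusted p = 0.219). A change of the size seen for Kit and no change both lie within this interval. The value was 1.00 without BcorWT replicate 2 and 2.11 without BcorWT replicate 1 or BcorΔE9-10 replicate 3. Without a replicate block, it was not called in any of the fits that left out 1 library. Fits with that block are given in the last section.

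Csf1r encodes the receptor for macrophage colony-stimulating factor and is a gene of monocytes and macrophages. It was counted at 85, 73 and 148 in BcorΔE9-10 and at 98 and 113 in BcorWT libraries, or 10.0, 11.9 and 17.3 against 13.9 and 16.7 CPM. The groups overlapped, and the BcorΔE9-10 libraries spanned the BcorWT range. The log2FC was -0.25 (SE 0.25, 95% interval -0.78 to 0.28, limma adjusted p = 0.576), which ranged from -0.51 to -0.051 as 1 library was left out and was -0.066 with GC correction. The exons of Csf1r overlap those of Hmgxb3 on the other strand, and whether counting used strand is not given in the sources used here, so reads of the 2 genes may be mixed. Csf1r stands among the genes of monocytes and dendritic cells, of which 0 of 8 tested markers were called by limma, edgeR or DESeq2 (2 had an unadjusted p under 0.05) and all 8 had negative log2FC values, with a median of -0.30. Ccr2, the chemokine receptor of inflammatory monocytes, had the lowest p of these (-0.92, limma adjusted p = 0.0751) and was called without BcorWT replicate 2 (-1.26, limma adjusted p = 0.0162), while it was -0.57 without BcorWT replicate 1 (limma adjusted p = 0.46).

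Among the receptors that share the β chain, the β chain itself fell. Csf2rb lies on the plus strand of chromosome 15 (78325990 to 78351000) and was counted at 557, 410 and 639 in BcorΔE9-10 and at 893 and 812 in BcorWT libraries. In CPM these were 65.8, 66.9 and 74.7 against 127 and 120. The groups were apart, with a gap between them wider than the range within either. Means were 69.1 ± 4.83 CPM (SD, n = 3) and 124 ± 4.59 CPM (SD, n = 2). Csf2rb was 1.79-fold lower, a log2FC of -0.84 (SE 0.12, 95% interval -1.10 to -0.58, limma adjusted p = 0.000506), rank 91 by p. It stayed called when any library was left out (-0.91 to -0.80) and in all 11 other settings (-0.91 to -0.69). The gene model used for counting stops 2847 bases short of the farthest Csf2rb end in GENCODE M21, which belongs to 1 of its transcripts, and reads from that end would not be in these counts. Exons of Csf2rb and Csf2rb2 overlap those of Mir7676-2 and Mir7676-1, in that order, on the same strand.

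Csf2rb2, the IL-3-specific duplicate, lies beside it on the minus strand (78282517 to 78305603). It had 27, 17 and 26 counts in BcorΔE9-10 and 19 and 44 in BcorWT libraries. The CPM values were 3.19, 2.77 and 3.04 against 2.70 and 6.52, so the BcorΔE9-10 libraries lay close together inside the range of the BcorWT pair. The log2FC was -0.46 (SE 0.44, 95% interval -1.38 to 0.47, limma adjusted p = 0.552), and it was 0.16 without BcorWT replicate 2.

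The β chains are near-identical over part of their length, which bears on how their reads can be told apart. Of all 30-base words of the Csf2rb transcript, 28.8% also occur in Csf2rb2, and 29.9% in the reverse comparison, but among the words at the end of the longest transcript of each gene 0% are shared. The longest run that both transcripts hold without a difference is 242 bases long and lies within the coding sequence, 2183 bases before the end of the Csf2rb transcript of 4900 bases and 2123 bases before that of Csf2rb2 (4740 bases, both from GENCODE M21). A read from this run could come from either gene:
shared run: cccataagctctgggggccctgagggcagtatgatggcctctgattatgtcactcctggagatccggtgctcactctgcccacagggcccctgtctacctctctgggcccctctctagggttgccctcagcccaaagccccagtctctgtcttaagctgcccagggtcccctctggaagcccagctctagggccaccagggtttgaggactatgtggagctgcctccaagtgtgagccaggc
By contrast, the last 60 coding bases of the 2 transcripts, stop codon included, differ at 42 positions when set side by side without gaps. They are shown 5′ to 3′ with the differing bases in capitals:
Csf2rb: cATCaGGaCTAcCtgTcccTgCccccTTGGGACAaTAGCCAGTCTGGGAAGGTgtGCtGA
Csf2rb2: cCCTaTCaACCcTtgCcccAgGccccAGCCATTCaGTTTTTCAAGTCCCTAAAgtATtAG

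Counted together, Csf2rb and Csf2rb2 were lower by a log2FC of -0.83 (SE 0.12, limma adjusted p = 0.000489), close to the value of Csf2rb alone. Csf2rb made up 95.4% of their joint counts in BcorΔE9-10 replicate 1 (Wilson 95% interval 93.4 to 96.8%), 96.0% in replicate 2 (93.7 to 97.5%) and 96.1% in replicate 3 (94.3 to 97.3%). In BcorWT libraries it made up 97.9% (96.8 to 98.7%) and 94.9% (93.2 to 96.1%). The BcorWT pair spanned the BcorΔE9-10 values, with group means of 95.8 ± 0.393% (SD, n = 3) and 96.4 ± 2.16% (SD, n = 2). The difference of -0.56 percentage points was within the spread between libraries (two-sided exact permutation test, p = 0.8, where 10 arrangements allow 0.1 at the least), and it was 0.97 without BcorWT replicate 1. The intervals cover counting error only.

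The α chains were measured less precisely. Csf2ra, which encodes the GM-CSF-binding chain, lies on the minus strand of chromosome 19 (61224402 to 61228418). It had 18.1, 11.9 and 14.5 CPM in BcorΔE9-10 and 20.9 and 16.0 CPM in BcorWT libraries, from 73 to 153 counts. The groups overlapped at BcorΔE9-10 replicate 1, and the log2FC was -0.30 (SE 0.23, 95% interval -0.78 to 0.18, limma adjusted p = 0.429), and it ranged from -0.48 to -0.11 as 1 library was left out. In GENCODE M21 the 3′ end of Csf2ra lies 445 bases beyond the gene model used for counting, so reads at that end would have been left out of these counts. Il3ra encodes the IL-3-binding chain and lies on the plus strand of chromosome 14 (14346275 to 14356011). Exons of Gm48860 on the other strand overlap those of Il3ra, so reads of both genes may be mixed. Il3ra was counted as follows. It had 9.57, 6.85 and 9.12 CPM in BcorΔE9-10 and 13.2 and 10.7 CPM in BcorWT libraries, from 42 to 93 counts. All 3 BcorΔE9-10 libraries were below both BcorWT libraries, with a log2FC of -0.47 that did not pass the threshold (SE 0.25, 95% interval -1.01 to 0.07, limma adjusted p = 0.268). Il5ra, the IL-5-binding chain of eosinophils, had 0 to 2 counts per library and was not tested.

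Whether the β chain fell more than its partners was asked through ratios within each library, chosen after the values were seen. The log2 ratio of Csf2ra to Csf2rb counts was -1.86, -2.49 and -2.37 in BcorΔE9-10 and -2.60 and -2.91 in BcorWT libraries, a difference of 0.52 (two-sided exact permutation test, p = 0.2). For Il3ra to Csf2rb it was -2.78, -3.29 and -3.03 against -3.26 and -3.50, a difference of 0.35 with overlapping groups (two-sided exact permutation test, p = 0.3). With 3 against 2 libraries such a test cannot go below 0.1. Without BcorΔE9-10 replicate 1 the differences were 0.33 and 0.22, and without BcorWT replicate 2 they were 0.36 and 0.23, settings that were also chosen after seeing the data. The Csf2ra ratios of all 3 BcorΔE9-10 libraries lay above both BcorWT ratios, while the Il3ra ratios overlapped. The log2FC intervals of Csf2ra (-0.78 to 0.18) and Il3ra (-1.01 to 0.07) both overlap that of Csf2rb (-1.10 to -0.58).

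Most of the tested basophil, mast cell and eosinophil markers were lower as well. These lineages respond to IL-3 and IL-5 through the β chain. Of 11 listed genes, 9 were tested, 6 were lower and 0 were higher, beside 4.09% and 6.02% over all genes. Ms4a2, Fcer1a and Il1rl1 were tested and not called. All 9 had negative log2FC values, with a median of -1.20. Epx, the eosinophil peroxidase, fell by 1.67 on the log2 scale (limma adjusted p = 0.00513). Prg2, the eosinophil major basic protein, fell by 1.30 (limma adjusted p = 7.73e-05). The basophil proteases Prss34 and Mcpt8 fell by 1.24 and 1.08 (limma adjusted p = 0.00017 and 0.00111). The list summed to 564 to 831 CPM in BcorΔE9-10 and to 1297 to 1603 CPM in BcorWT libraries, while Gzmb and Il5ra of the same list had at most 3 counts. Their part in the Csf2rb difference was not tested.

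**Figure D2:**
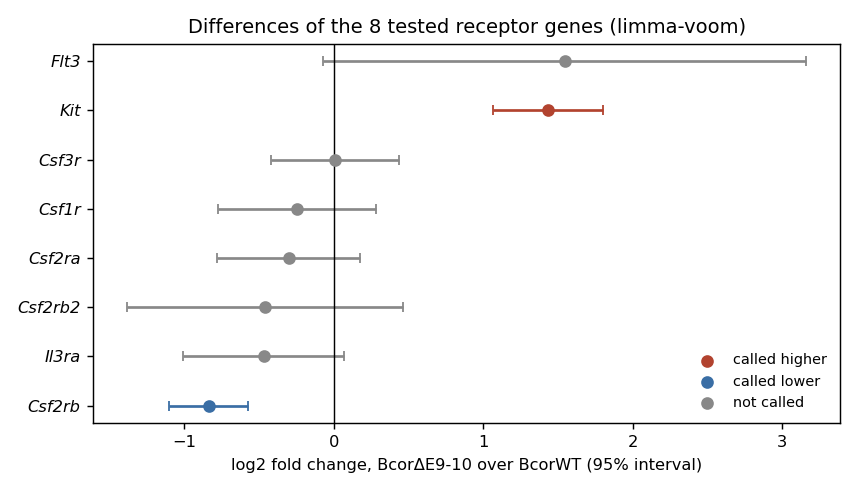
Log2 fold change of BcorΔE9-10 over BcorWT for the 8 tested receptor genes with the 95% interval of the limma-voom fit. The intervals of Kit (1.07 to 1.80) and Csf2rb (-1.10 to -0.58) lie away from 0, and the other 6 include it, from the narrow interval of Csf3r (-0.42 to 0.44) to the wide interval of Flt3 (-0.07 to 3.16).

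Csf3r, the G-CSF receptor of the neutrophil lineage, was level between the groups. It lies on the plus strand of chromosome 4 (126024550 to 126044440) and was counted at 287, 192 and 233 in BcorΔE9-10 and at 167 and 266 in BcorWT libraries. In CPM these were 33.9, 31.3 and 27.2 against 23.7 and 39.4, with the 3 BcorΔE9-10 libraries inside the range of the BcorWT pair. The log2FC was 0.01 (SE 0.20, 95% interval -0.42 to 0.44, limma adjusted p = 0.987). The bounds leave room for changes of up to 0.44 in either direction, and the value was -0.37 without BcorWT replicate 1, 0.37 without BcorWT replicate 2, -0.07 and -0.0051 without BcorΔE9-10 replicate 1 and 2, and -0.0080 with DESeq2 size factors. Of the 30-base words at the Csf3r transcript end, 42.8% also occur in transcripts of other genes, so the Csf3r counts are uncertain. Over the whole transcript, the gene that shares most words with Csf3r is AC105061.2. Over the same libraries 6 of 10 mature neutrophil markers were lower and 0 were higher, with a median of -0.62 and 8 with an unadjusted p under 0.05. Ltf (lactoferrin) fell by 0.81, Mmp9 (gelatinase) by 0.71, Ngp (a granule protein) by 0.68 and Lcn2 (lipocalin) by 0.63 (limma adjusted p = 7.34e-05, 0.0329, 0.000242 and 0.00109). The call of Mmp9 was lost with DESeq2 (-0.83, DESeq2 adjusted p = 0.189), total counts alone (-0.57) and GC correction (-0.62), without BcorΔE9-10 replicate 2 or 3 (-0.65 and -0.74), and without BcorWT replicate 1 (-0.18, limma adjusted p = 0.495). Camp, which encodes the granule peptide cathelicidin and was named after its values were seen, had a positive log2FC of 0.25 (95% interval 0.05 to 0.45, limma adjusted p = 0.114). It was called without BcorWT replicate 2 (0.44), with total counts alone (0.39), with no expression filter (0.25) and with GC correction (0.33), and was 0.056 without BcorWT replicate 1.

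Epor, the erythropoietin receptor, lies on the minus strand of chromosome 9 (21958897 to 21963506) and was barely counted. It had 1 count in each BcorΔE9-10 library and 2 and 0 in the BcorWT libraries, all at or under the limit of 3 counts that an observation of 0 allows, so no fold change is given. Erythroid RNA was present at low levels, and the 14 erythroid markers summed to 132 to 341 CPM in BcorΔE9-10 and 78.1 to 123 CPM in BcorWT libraries. Of 11 tested, 1 was higher by limma, 5 by edgeR and 2 by DESeq2. Positive log2FC values were found for 10 of the 11, 7 of them with an unadjusted p under 0.05, and the median was 1.61. The limma call was Car1 (carbonic anhydrase of early erythroid cells), with a log2FC of 2.46 (limma adjusted p = 0.0443). It was lost with sample quality weights (2.39), with GC correction (2.30) and without BcorΔE9-10 replicate 2 or 3 or either BcorWT library (2.10 to 2.57, limma adjusted p = 0.0781 to 0.143). Erythroid transcription factor Klf1 was at 0 in BcorWT replicate 1 and had at most 10 counts elsewhere.

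**Figure D3:**
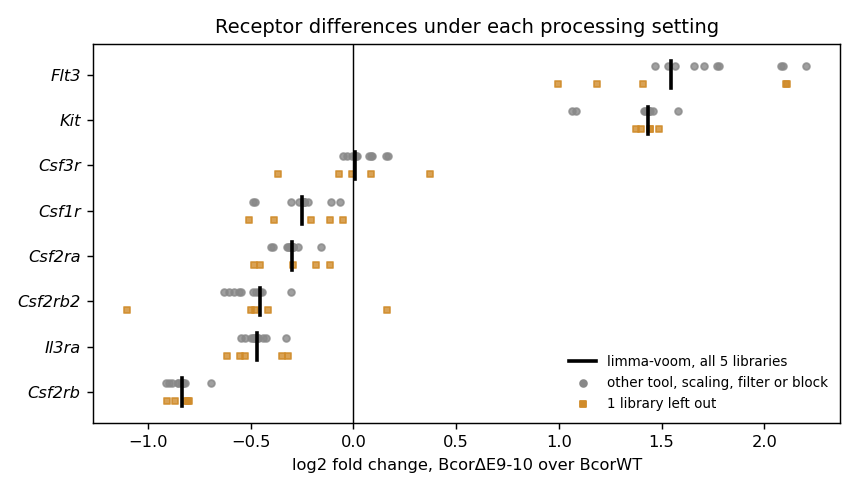
Log2 fold change of each tested receptor gene with all 5 libraries (black bar), with another tool, scaling, filter or block (grey circles) and with 1 library left out (orange squares). Kit (1.06 to 1.58) and Csf2rb (-0.91 to -0.69) keep to one side of 0, while Csf3r and Csf2rb2 have values on both sides.

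The genes that work with the receptors were read from lists by role, 106 genes in all, of which 91 were tested, 10 were higher and 3 were lower. With total counts alone the split was 15 higher and 1 lower, and with GC correction 8 and 2. The main count is 13 of 91, beside 10.1% over all genes, and 8 were called without BcorΔE9-10 replicate 3. Among the 10 ligands, 7 had no count in any library, including Csf2, Csf3, Il3 and Epo, each of which allows at most 3 counts per library. Kitl, the KIT ligand, had 1 count in 1 library. Flt3l and Csf1 were tested, and 0 were called by limma, edgeR or DESeq2 or had an unadjusted p under 0.05. Flt3l had 8.98, 6.04 and 8.41 CPM in BcorΔE9-10 and 8.24 and 3.85 CPM in BcorWT libraries, with a log2FC of 0.46 (limma adjusted p = 0.436) that became -0.06 without BcorWT replicate 2.

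Of 16 other cytokine receptors, 12 were tested and 1 was called. An unadjusted limma p under 0.05 was found for 5, of which 4 were negative (Il2rg, Il4ra, Il1rl1 and Ifnar2, named after their values were seen). All BcorΔE9-10 libraries were below both BcorWT libraries for 4 of the 12 and above for 1, beside 20.3% and 22.6% over all genes. Tgfbr2, the signalling receptor for TGF-β, had 12.6, 11.3 and 13.2 CPM in BcorΔE9-10 and 2.56 and 4.89 CPM in BcorWT libraries. It was higher by a log2FC of 1.80 (SE 0.36, limma adjusted p = 0.00461), which was 1.33 and no longer called without BcorWT replicate 1 (limma adjusted p = 0.0647). The median of this list was -0.09.

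Downstream of the receptors, 1 of 25 kinases and adaptors tested was lower and 0 were higher by limma, with a median of -0.22, beside 2 called by edgeR and 1 by DESeq2. An unadjusted p under 0.05 was found for 8, of which 7 were negative. All BcorΔE9-10 libraries were below both BcorWT libraries for 12 of the 25 and above for 4, beside 20.3% and 22.6% over all genes. The called gene was Fes, a tyrosine kinase that acts below the β chain, with a log2FC of -0.42 (limma adjusted p = 0.0346). Its call was lost without BcorΔE9-10 replicate 1, 2 or 3 or BcorWT replicate 1 (-0.47 to -0.35, limma adjusted p = 0.0628 to 0.18), with GC correction (-0.23) and with total counts alone (-0.27). Jak3, the kinase of the common γ chain receptors, was named after its values were seen. It had 2.95, 2.77 and 4.09 CPM in BcorΔE9-10 and 5.68 and 9.78 CPM in BcorWT libraries, with a log2FC of -1.16 (limma adjusted p = 0.0548), and was called by edgeR (-1.22, edgeR adjusted p = 0.0407), with at least 10 counts in every library (-1.17) and without BcorWT replicate 1 (-1.56). It was not called without BcorWT replicate 2 (-0.78, limma adjusted p = 0.292) or with GC correction (-0.998, limma adjusted p = 0.119). Of the 7 STAT genes, 0 were called by limma, edgeR or DESeq2, and 2 had an unadjusted p under 0.05. Stat5b, which encodes a main transducer of the β chain receptors, had the lowest p, with a log2FC of 0.34 (limma adjusted p = 0.143), and was called with total counts alone (0.49, limma adjusted p = 0.0429). It ranged from 0.18 without BcorWT replicate 1 (limma adjusted p = 0.618) to 0.50 without BcorWT replicate 2 (limma adjusted p = 0.0717).

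Of 15 tested target genes of STAT5 or growth factor signals, 2 were higher and 1 was lower, with a median of 0.34. The list was not split by whether a signal induces or represses the gene. Myc, a transcription factor that drives growth, was at 13.4, 16.0 and 9.47 CPM in BcorΔE9-10 and at 2.27 and 2.82 CPM in BcorWT libraries, a log2FC of 2.26 (SE 0.45, limma adjusted p = 0.00401). Osm, which encodes the cytokine oncostatin M, was higher by 0.76 (limma adjusted p = 0.0107), a call lost without BcorΔE9-10 replicate 3 (0.70) or BcorWT replicate 2 (0.51). Ccnd3, cyclin D3, was lower by a log2FC of -0.57 (limma adjusted p = 0.00117). The classic STAT5 targets Cish and Pim1, named after their values were seen, were not called, with log2FC values of -1.10 (limma adjusted p = 0.23) and 0.58 (limma adjusted p = 0.123). Cish was -0.57 without BcorΔE9-10 replicate 1 and -1.53 without BcorΔE9-10 replicate 3. Pim1 was called with total counts alone (0.73) and without BcorWT replicate 2 (1.08), and was 0.064 without BcorWT replicate 1.

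Among 16 tested genes of the receptor inhibitor list, 2 were higher and 0 were lower by limma, beside 6.02% and 4.09% over all genes. The list also holds the receptor sorting genes Stam, Stam2 and Usp8, so its median of 0.47 does not describe inhibitors alone. By edgeR 3 were called and by DESeq2 2. An unadjusted p under 0.05 was found for 8, of which 6 were positive. All BcorΔE9-10 libraries were above both BcorWT libraries for 7 and below for 2, beside 22.6% and 20.3% over all genes. Cbl, the ubiquitin ligase that sends activated KIT and other receptors to degradation, was higher by a log2FC of 0.57 (limma adjusted p = 0.0265). Ptprj, a receptor-type phosphatase, was higher by 0.90 (limma adjusted p = 0.0399). Neither call held throughout. Without BcorWT replicate 1 the values were 0.24 for Cbl and 0.55 for Ptprj, and with GC correction 0.36 and 0.75, and none of these passed (limma adjusted p = 0.0826 to 0.396). The Cbl call was also lost without BcorΔE9-10 replicate 1 (0.58) or 3 (0.52), and the Ptprj call without replicate 2 (0.94) or 3 (0.74) and with sample quality weights (0.91).

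Of the 14 transcription factors known to bind or control these receptor genes, all tested, 5 were higher and 1 was lower, with a median of 0.30. This list includes factors that the study itself discusses from these samples, and is no independent evidence of direction. Hoxa9, a homeobox factor of immature progenitors, had 28.2, 20.9 and 32.8 CPM in BcorΔE9-10 and 2.27 and 2.22 CPM in BcorWT libraries, a log2FC of 3.56 (SE 0.47, limma adjusted p = 0.000192). Etv6, an ETS repressor needed by stem cells, was higher by 1.10 (limma adjusted p = 0.000374). Gata2, which acts on Kit in stem cells and mast cells, was higher by 1.05 (limma adjusted p = 0.00726). Tal1, the SCL factor that acts with GATA proteins, was higher by 1.48 (limma adjusted p = 0.0202), a call lost without BcorΔE9-10 replicate 3 (1.39) or BcorWT replicate 2 (0.94).

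The remaining 2 calls were named after their values were seen. Myb, which is known to act on Kit, was higher by 0.41 (limma adjusted p = 0.0201) and lost its call without BcorΔE9-10 replicate 1 or 3 (0.38 and 0.42) or BcorWT replicate 2 (0.36). Spi1, encoding PU.1, which is known to act on Csf1r, Csf2ra and Csf3r, was at 157, 146 and 168 CPM in BcorΔE9-10 and at 230 and 206 CPM in BcorWT libraries. It was lower by a log2FC of -0.47 (limma adjusted p = 0.0154), which was not called without BcorΔE9-10 replicate 1 (-0.47) or BcorWT replicate 1 (-0.40), with total counts alone (-0.33) or with GC correction (-0.28, limma adjusted p = 0.139).

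**Figure D4:**
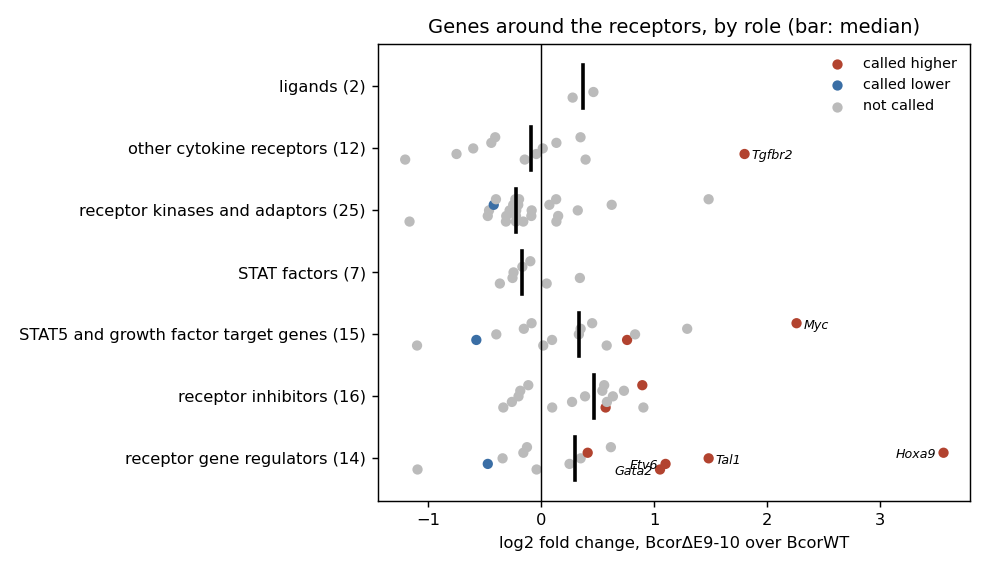
Log2 fold change of BcorΔE9-10 over BcorWT for tested genes that act with the receptors, in rows by role with the number tested in brackets and a bar at the median. The transcription factors hold 6 of the 13 calls and no other row more than 3, with Hoxa9 (3.56) and Myc (2.26) farthest to the right.

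Other cell types were covered by marker lists. Of 6 granulocyte-monocyte progenitor markers 0 were called by limma, edgeR or DESeq2 and 1 had an unadjusted p under 0.05, with a list median of 0.01, and the lowest p was that of Ctsg (0.33, limma adjusted p = 0.0895), which was called with total counts alone, with no expression filter, with GC correction or without BcorWT replicate 2 (0.53), while it was 0.13 without BcorWT replicate 1 (limma adjusted p = 0.622). Of 6 megakaryocyte markers tested 0 were called by limma, edgeR or DESeq2 and 1 had an unadjusted p under 0.05, and the lowest p was that of Pf4 (0.75, limma adjusted p = 0.0921), which was called with total counts alone and was 1.14 without BcorWT replicate 1 and 0.36 without BcorWT replicate 2 (limma adjusted p = 0.0531 and 0.449). Of 5 lymphoid markers tested 0 were called by limma, edgeR or DESeq2 and 1 had an unadjusted p under 0.05, and Dntt, an enzyme of early lymphoid progenitors that also express Flt3, had a log2FC of 1.5 (limma adjusted p = 0.129), which was 2.85 without BcorWT replicate 1 and 0.21 without BcorWT replicate 2. Of 4 stem and multipotent progenitor markers tested, 1 was higher by limma, Gata2, and 2 by edgeR and by DESeq2, all 4 log2FC values were positive and the median was 0.84. Angpt1, which encodes a ligand of the TIE2 receptor and was named after its values were seen, had a log2FC of 1.13 (limma adjusted p = 0.0605) and was called by edgeR (1.21) and by DESeq2, with total counts alone (1.28), with at least 10 counts in every library (1.14) and without BcorΔE9-10 replicate 3 (1.41), while it was 0.81 with GC correction (limma adjusted p = 0.184). The part of these cell types in the values of Flt3 and Kit was not tested.

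The genes most like Kit in their levels over the 5 libraries were sought among 7714 genes whose mean log2 CPM was 3 or more, by the root mean square distance of log2 CPM after centring. These were Smim10l1 (0.07), Arap2 (0.085) and Gnas (0.091). Gnas, encoding the stimulatory G protein subunit, had 85.9, 84.4 and 85.4 CPM in BcorΔE9-10 and 32.0 and 38.2 CPM in BcorWT libraries. The genes most like Csf2rb were Ppp1r3b (0.057), Mocos (0.062) and Neurl1b (0.079). Mocos, an enzyme that activates molybdenum cofactor, had 33.6, 31.0 and 34.7 CPM in BcorΔE9-10 and 56.9 and 55.9 CPM in BcorWT libraries. These distances describe likeness over 5 libraries, where a difference between the groups takes up most of the pattern.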

How the data were processed

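KL cells were sorted from bone marrow and QuantSeq 3′ libraries were sequenced. The authors trimmed reads, aligned them to mm10 with HISAT2 and counted them per gene with featureCounts (Subread 1.5.0-p3, per the submitters' processing notes). The values deposited by the authors are raw, unscaled gene counts, and the options for strand and for reads with several alignments are not given in the sources used here. The Wilson intervals of the Csf2rb share cover counting error only. Reads without molecular identifiers are not independent molecules, so these intervals may be too narrow. The limma intervals include the spread between libraries.

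Symbols were matched for 52403 of 52550 genes. Replicate libraries were further apart than counting noise allows (chi-square 6.01 to 11.6 per degree of freedom). Separate preparation of libraries can also give such a spread, so it does not show that each was a separate animal. Each library was used as a replicate. Genes were filtered with filterByExpr of edgeR 4.0.16 (minimum count 10, minimum total 15), scaled by TMM and tested with limma 3.58.1 (voom) in R 4.3.3, two-sided, with Benjamini-Hochberg adjustment. CPM are counts per 1e+06 TMM-scaled counts. The limma, edgeR and DESeq2 fits were first tested on simulated data. Alternatives were edgeR's quasi-likelihood test, DESeq2 1.42.0, sample quality weights, other scalings and filters, a lowess correction for GC content of the last 300 transcript bases (span 0.3), blocking on replicate number, and leaving out 1 library at a time.

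The receptor genes and the lists were chosen with earlier results of these data known. Named genes were all 9 receptors, the called genes of each list up to the 4 of largest change, or else the gene of lowest p, and the 3 genes most like the called receptors. Bcor, Cd34, Cish, Pim1, Itgam, Camp, Jak3, Angpt1, Spi1 and Myb, and the gate and erythroid genes given by counts or levels alone, were added after values were seen. Gene positions are those of the deposited table (mm10), and transcripts are those of GENCODE M21. Promoter and protein sequences were not used here.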

Additional observations from a re-analysis of the deposited data

How the results depend on the processing

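Among the 11 other settings, the replicate block over 2 pairs leaves out BcorΔE9-10 replicate 3. Across these 11 and the 5 fits with 1 library left out, Kit and Csf2rb kept their direction and their call. The sum of Csf2rb and Csf2rb2 did so too (-0.90 to -0.68). Of the values for receptors and this sum, 133 kept their direction and side of the threshold. For Flt3 the replicate block passed the threshold, with 2.08 over 2 pairs, 2.09 over all libraries and 2.21 with GC correction as well (limma adjusted p = 0.0163, 0.0234 and 0.0154), so that 3 receptors were called there. BcorΔE9-10 replicate 3 has no BcorWT library of the same number, so its level does not enter the difference in any of these fits. They rest on the same 2 pairs and are not separate support. The cause of the Flt3 calls was not tested. Deviations of same-numbered libraries had correlations of 0.07 and 0.076 over 11766 genes, and the libraries share only a number. Over all libraries the block called 1454 genes against 1189 without it, and over 2 pairs 1579 against 723 without BcorΔE9-10 replicate 3. Among the other named genes both fits also called Camp, Jak3, Pim1, Angpt1, Ctsg and Pf4, and lost Ptprj (0.73 and 0.74). Csf3r turned negative with edgeR (-0.033), DESeq2 (-0.050) and DESeq2 size factors (-0.0080), and it ranged from -0.37 to 0.37 as 1 library was left out. The same range was -1.10 to 0.16 for Csf2rb2 and -0.061 to 1.01 for Flt3l. Cd34 turned positive with total counts alone (0.12) and with the replicate block (0.088 over 2 pairs and 0.10 over all libraries), with a range of -0.12 to 0.096 as 1 library was left out. The pathway genes called then ranged from 8 to 12 and all genes called from 558 to 1200, where fewer libraries were tested. Of values for other named genes 593 kept their direction and call, 63 lost the call, 39 gained it and 7 reversed, among them Itgam with GC correction and the replicate block (-0.030). Flt3 could not be fitted with at least 10 counts in every library. A lone BcorWT library was assumed to vary like the other group. Depth limits Flt3, Csf2rb2 and Il3ra, with under 100 counts per library, and Epor most.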
